A study of Mus musculus with 12 samples.

Results

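The genes described here encode chaperones and regulators of the unfolded protein response and of the response to amino acid shortage. They are Hspa5, Hsp90b1, Dnajb9, Herpud1, Xbp1, Atf4, Ddit3, Trib3, Asns and Chac1. The members were the rows of the expression table that carried one of these symbols, 10 genes of 55487 in all. Ddit3 had 2 rows, and the row with the higher mean level was kept. All 10 genes passed the filter on low values, at least 1 TPM in 2 libraries or more, which left 15968 genes for the tests. TPM is a relative transcript level that is corrected for transcript length and scaled to the same total in every library.

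The libraries came from 3T3-L1 cells, mouse embryonic fibroblasts that become adipocytes once induced with hormones. Fragmented total RNA was sequenced in 2 libraries for each of 6 groups. Control cells carried a lentiviral scrambled hairpin (shScram) and knockdown cells carried a lentiviral hairpin against Fto (shFto), an RNA demethylase, and both lines were selected with puromycin. Each line was taken as uninduced preadipocytes (Pre), at the mitotic clonal expansion (MCE) stage and after differentiation (Diff), with the MDI hormone mixture and then insulin given to both lines from induction onwards. Which Fto hairpin was sequenced is not given in the sources used here, and each line is a single selected population. The treatment entry of 1 library, titled as shScram replicate 1 of the differentiation stage, named the knockdown. Its title was followed. Nothing in the labels says that the replicates came from separate cultures, so the p-values measure the spread between these libraries, which may be technical.

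The endoplasmic reticulum (ER) folds secreted and membrane proteins. When unfolded proteins build up there, the sensors IRE1 (gene Ern1), PERK (Eif2ak3) and ATF6 signal to the nucleus. IRE1 splices the Xbp1 mRNA into the form that encodes an active factor, ATF6 is cut by the site proteases into an active factor, and PERK phosphorylates the initiation factor eIF2, which lowers general translation and favours translation of ATF4. Other kinases, such as GCN2 (Eif2ak4) upon amino acid shortage, act on the same factor, so that ATF4 and its targets Ddit3, Trib3, Asns and Chac1 answer to both stresses. Adipocytes secrete large amounts of protein, and XBP1 and C/EBP homologous protein (the product of Ddit3) are known to take part in adipogenesis. The TPM of Xbp1 is a value per gene and does not separate the spliced from the unspliced mRNA. ATF4 is controlled largely in translation, which these libraries do not measure.

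One pair of libraries stood apart. Over the genes tested, the shScram preadipocyte replicates had a Pearson r of 0.939 on the log2 scale, and 20.0% of genes were over 2-fold apart. In the other pairs r was 0.990 to 0.993 and 0.752% to 1.61% of genes were that far apart. Within this pair the difference between the replicates followed the GC content of the genes (Spearman rho -0.69 across genes). In the other pairs rho was -0.20 to 0.36. Mitochondrial genes took 14.5% of the TPM in replicate 1 of shScram preadipocytes and 7.34% in replicate 2. Their share also differed between the lines. It was 4.79% and 5.44% in shFto preadipocytes, 6.22% and 5.72% in shScram against 4.89% and 4.83% in shFto cells during MCE, and 7.40% and 9.17% against 4.61% and 4.58% after differentiation, so that the shFto libraries were the lower at each stage. Among the members, 6 of 10 were over 1.5 times apart in the shScram preadipocyte pair. The ratios were 4.45 for Trib3, 4.03 for Chac1, 2.78 for Dnajb9, 2.64 for Atf4, 2.13 for Hsp90b1 and 1.63 for Xbp1. In the other 5 groups the ratio between the libraries of a pair was 1.22 or less for every member. All libraries share one estimate of the spread in the model, so this pair also widens the errors of Atf4, Trib3, Chac1, Dnajb9 and Hsp90b1 at the later stages. Results are therefore given with and without these libraries for the members and for part of the gene lists described below. For the sensor, eIF2, heat shock, ATF4-linked, synthetase and transporter lists, the knockdown counts in preadipocytes are given only with both libraries. Those counts rest on this pair. The part of GC content and of mitochondrial RNA in the values was not tested beyond the GC-corrected fit.

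**Figure D1:**
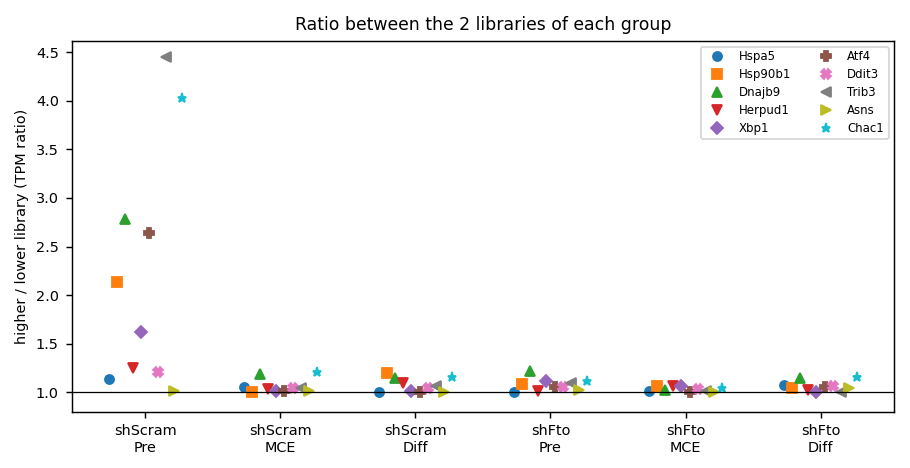
Ratio of the higher to the lower library (y axis, ratio of TPM) in each of the 6 groups (x axis), with one symbol for each of the 10 genes. In shScram preadipocytes 6 genes lie above 1.5 and Trib3 reaches 4.45, whereas in the other 5 groups no gene is above 1.22.

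Markers of the cell types were examined first. Adipocyte markers summed to 137.8 to 196 TPM in shScram preadipocytes and to 1592 and 1579 TPM in shScram cells at the differentiation stage, where shFto cells had 477 and 442 TPM. In this comparison 7 of 8 adipocyte markers were lower in shFto cells (median log2 fold change -3.11), and by the mean over all 12 libraries Lpl and Fabp4 were the most abundant of the list (214 and 212 TPM). The fibroblast markers summed to 4848 TPM or more in every library, with Vim the most abundant. Of these 7 markers, Pdgfrb and Thy1 were higher and Pdgfra and Vim lower in shFto preadipocytes (adjusted p under 0.05 by limma). During MCE Thy1 was higher and Dlk1 and Vim were lower, and after differentiation Thy1 was higher and Vim lower. Their sums during MCE were 6721 and 6187 TPM (shScram) against 5121 and 4848 TPM (shFto). After differentiation they were 9328 and 8925 against 7498 and 7905 TPM. In preadipocytes the sums overlapped. Macrophage markers summed to 10.98 TPM or less, with Adgre1 at 0 in all libraries and Lyz2 the most abundant. Endothelial markers summed to 1.15 TPM or less, with Kdr at 0 in all libraries and Pecam1 the most abundant. At the MCE stage the adipocyte markers summed to 412 and 406 TPM in shScram and to 292 and 302 TPM in shFto cells. There 5 of the 8 adipocyte markers were lower (Cd36, Fabp4, Cidec, Pparg and Plin1) and Lpl was higher, with a median of -0.89. In preadipocytes 2 of the 8 adipocyte markers (Lpl and Lipe) were higher in shFto cells. The members' differences at each stage therefore stand beside differences in adipocyte and fibroblast markers, whose part in them was not tested. In these bulk libraries a smaller share of cells that express a gene and less RNA per cell cannot be told apart.

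The upstream sequences of the members were taken from RefSeq (GRCm38.p6, all 10 members matched) to show the known stress elements that they hold, since these elements divide the genes by the factors known to bind them. Both strands of the window from 250 bases before the transcript start to a short stretch after it were searched for the ER stress element ERSE (CCAAT and CCACG with 9 bases of any kind between them), ERSE-II (ATTGG and CCACG with 1 base between them), the XBP1-type element UPRE (TGACGTGG) and the C/EBP-ATF element (TGATGNAA). ERSE and ERSE-II share the CCACG part. ERSE was in 0.119% of 32851 windows, ERSE-II in 0.0365%, UPRE in 0.676% and the C/EBP-ATF element in 3.97%. The 250 bases before the start are shown for a chaperone gene with ERSE (Hspa5), for Herpud1, which holds both ERSE-II and a C/EBP-ATF element, and for an amino acid response gene (Asns). Capitals mark the fixed letters of the elements, and each sequence runs 5′ to 3′ on the gene's strand.
Hspa5 (chr2:34771840-34772089, plus strand): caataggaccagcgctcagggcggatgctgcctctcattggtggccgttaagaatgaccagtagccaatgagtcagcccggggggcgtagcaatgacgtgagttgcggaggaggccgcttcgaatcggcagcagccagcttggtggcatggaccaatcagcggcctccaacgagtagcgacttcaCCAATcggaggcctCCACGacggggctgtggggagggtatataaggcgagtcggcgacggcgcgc
Herpud1 (chr8:94386179-94386428, plus strand): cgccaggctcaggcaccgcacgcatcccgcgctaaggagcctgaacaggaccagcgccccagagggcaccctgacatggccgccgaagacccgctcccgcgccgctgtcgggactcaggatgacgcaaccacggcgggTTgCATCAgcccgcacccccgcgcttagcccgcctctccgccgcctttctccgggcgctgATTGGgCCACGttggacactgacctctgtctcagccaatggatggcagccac
Asns (chr6:7693210-7693459, minus strand): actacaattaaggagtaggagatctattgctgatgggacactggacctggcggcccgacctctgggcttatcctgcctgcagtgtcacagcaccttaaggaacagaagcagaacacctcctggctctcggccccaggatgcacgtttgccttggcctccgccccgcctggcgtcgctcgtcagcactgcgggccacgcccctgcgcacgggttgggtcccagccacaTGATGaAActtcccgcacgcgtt
The GENCODE models of Hspa5 and Asns start further upstream than these RefSeq transcripts, so the stretch next to the start can lie inside a transcript.

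In Hspa5 the ERSE match lay at -65 to -47 from the start. Hsp90b1 had 2 matches of ERSE, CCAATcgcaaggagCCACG at -212 to -194 and, on the other strand, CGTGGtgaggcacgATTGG at -107 to -89. Herpud1 held ERSE-II (ATTGGgCCACG) at -52 to -42 and a C/EBP-ATF match on the other strand (TTgCATCA) at -112 to -105. The C/EBP-ATF element was also found in Asns (TGATGaAA, -23 to -16), in Chac1 (TTgCATCA, -193 to -186) and in Trib3, where it lay after the start (TTaCATCA, 15 to 22). By the GENCODE model, which starts further downstream, the Trib3 site lies before the start. None of the 4 patterns was found in the windows of Dnajb9, Xbp1, Atf4 and Ddit3, which says only that these letters are not there.

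Fto was low in each of the 6 shFto libraries. In shScram cells Fto was at 52.7 and 58.3 TPM before induction, at 59.1 and 55.7 TPM during MCE and at 73.5 and 70.8 TPM after differentiation. In shFto cells it was at 5.51 and 5.55, 6.32 and 6.03, and 7.47 and 7.05 TPM, respectively. The mean in shFto cells was 9.96%, 10.8% and 10.1% of that in shScram cells.

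The members spanned a wide range of levels. By mean TPM, Hspa5 and Hsp90b1 were the first and second of the 10 in 5 of 6 groups, and in shScram preadipocytes they were in the opposite order with Hsp90b1 at 641 ± 328 TPM (SD, n = 2) and Hspa5 at 512 ± 46.8 TPM, within the spread of Hsp90b1. At the differentiation stage of shScram cells they could not be separated either (568 ± 2.38 and 565 ± 71.8 TPM). Atf4 and Asns came next at the MCE and differentiation stages of both lines. Chac1 was last at these stages, with 18.5 ± 2.47 TPM beside 19.5 ± 2.41 TPM of Dnajb9 in shScram cells during MCE, a gap within their spread. In preadipocytes of both lines Dnajb9 was last, at 20.5 ± 2.89 TPM in shFto cells and at 26.9 ± 17.9 TPM in shScram cells, where Xbp1 (46.1 ± 15.5 TPM) and Chac1 (58.9 ± 50.1 TPM) came before it within the spread.

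**Figure D2:**
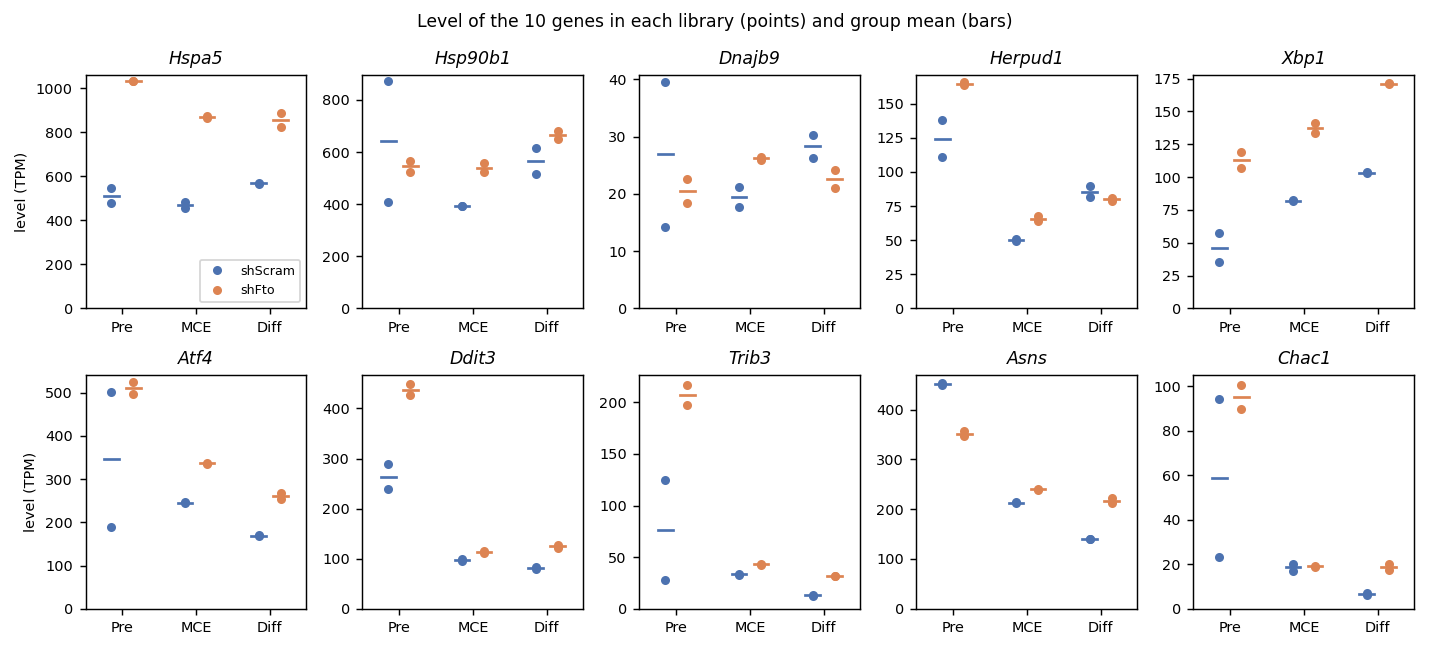
Level (y axis, TPM from 0) of each of the 10 genes in every library (points) and the group mean (horizontal bars) at the Pre, MCE and Diff stages (x axis), with shScram in blue and shFto in orange. Hspa5 and Xbp1 are higher in both shFto libraries at each stage, Asns is lower in shFto preadipocytes and higher at the later stages, and the 2 shScram preadipocyte libraries lie far apart for Trib3, Chac1, Atf4, Dnajb9 and Hsp90b1.

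The first comparison asked how the genes differ between shFto and shScram cells at each stage. It was tested with limma on log2(TPM + 1), with Benjamini-Hochberg adjustment over the 15968 genes, and a fold change on this scale understates that of low genes. Of the members, 5 were upregulated and 1 was downregulated in shFto preadipocytes, 2 were upregulated during MCE and 4 after differentiation. Among all genes tested 15.9% rose and 12.3% fell in shFto preadipocytes, 10.5% rose and 7.26% fell at the MCE stage, and 11.9% rose and 9.31% fell at the differentiation stage. Fitted on only the 4 libraries of each comparison, no member and none of the 15968 genes was called in preadipocytes. Hspa5, Xbp1 and Ddit3 had an adjusted p of 0.205, 0.213 and 0.248 there. An unadjusted p under 0.05 was found for 3 members, a threshold at which no share of all genes is given. That fit called 9 members and 5913 genes during MCE and 7 members and 6613 genes after differentiation. The median log2 fold change of the members was 0.73, 0.40 and 0.61, and that of all genes tested was 0.08, 0.05 and 0.03, in the same order. Both shFto libraries were above both shScram libraries at all 3 stages for 4 members (Hspa5, Xbp1, Ddit3 and Trib3), against 16.6% of all genes tested.

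Hspa5, which encodes the ER chaperone BiP that also holds the stress sensors inactive, rose at each stage. In preadipocytes it was at 479 and 545 TPM in shScram and at 1031 and 1033 TPM in shFto cells. The values during MCE were 457 and 482 against 873 and 865 TPM, and at the differentiation stage 567 and 570.1 against 822 and 887 TPM. The groups did not overlap at any stage. The log2 fold change was 1.01 ± 0.12 (SE, adjusted p = 0.000829), 0.89 ± 0.12 (adjusted p = 0.00114) and 0.59 ± 0.12 (adjusted p = 0.00761). At the differentiation stage the call was lost when a single library of that comparison was left out, for 3 of the 4 (shScram replicate 1, adjusted p = 0.0536, shScram replicate 2, adjusted p = 0.0527, and shFto replicate 2, adjusted p = 0.0736).

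Xbp1 encodes the factor that IRE1 activates. It was at 35.1 and 57.1 TPM in shScram preadipocytes and at 107 and 119 TPM in shFto preadipocytes. During MCE it was at 82.5 and 81.5 TPM in shScram and at 133 and 142 TPM in shFto cells, and at the differentiation stage at 104 and 103 TPM against 171 in both shFto libraries. The shFto libraries were the higher at each stage. The log2 fold change was 1.31 ± 0.19 in preadipocytes (adjusted p = 0.00251), 0.74 ± 0.19 at the MCE stage (adjusted p = 0.0289) and 0.72 ± 0.19 at the differentiation stage (adjusted p = 0.0276). In preadipocytes the value was 0.97 without shScram replicate 1 and 1.66 without replicate 2. The calls at the MCE and differentiation stages ended for 8 and 6 of the 12 libraries left out in turn. These were the 8 libraries of the MCE and differentiation stages for the first call and the 4 of the differentiation stage with the shFto libraries of the MCE stage for the second, with adjusted p up to 0.159 and 0.129. Both calls also ended in the fit with no filter on low values (adjusted p = 0.0677 and 0.055).

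Hsp90b1 encodes GRP94, the ER member of the HSP90 family, and Dnajb9 encodes ERdj4, a J-domain partner of BiP. Hsp90b1 was at 873 and 409.8 TPM in shScram and at 524 and 566 TPM in shFto preadipocytes, so that the groups overlapped. During MCE it was at 392 and 393 TPM against 556 and 522 TPM, and at the differentiation stage at 514 and 616 TPM against 649 and 679 TPM. None of these differences passed the test with all 12 libraries and no GC correction, with a log2 fold change of -0.14 ± 0.29, 0.46 ± 0.29 and 0.24 ± 0.29 and adjusted p of 0.736, 0.341 and 0.616. Without shScram preadipocyte replicate 1 the difference in preadipocytes turned to 0.41 (adjusted p = 0.0187), and without replicate 2 it was -0.68 (adjusted p = 0.000318). It was also above 0 after the GC correction (0.30, adjusted p = 0.148). The difference at the MCE stage passed the test after the GC correction (0.50, adjusted p = 0.0327) and without both shScram preadipocyte libraries (adjusted p = 0.00224). In preadipocytes the values of Dnajb9 were 39.5 and 14.2 TPM (shScram) against 18.4 and 22.5 TPM (shFto). They were 21.2 and 17.7 against 25.9 and 26.5 TPM during MCE, and 30.3 and 26.3 against 21.0 and 24.1 TPM after differentiation. Its shFto libraries were thus above the shScram libraries at the MCE stage and below them after differentiation, with adjusted p of 0.516 and 0.604. Its difference in preadipocytes was -0.22 with all libraries, 0.49 without replicate 1, -0.92 without replicate 2 and 0.29 after the GC correction (adjusted p = 0.338). Both genes overlap other annotated genes, and the use of strand in the counting is not stated, so their levels are uncertain to that extent.

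Herpud1 encodes an ER membrane protein of the degradation machinery. It was at 110.7 and 138 TPM in shScram and at 164 and 166 TPM in shFto preadipocytes, with no overlap. The log2 fold change was 0.41 ± 0.13 (adjusted p = 0.0415). The value was 0.25 without shScram replicate 1 and 0.57 without replicate 2. The call was lost when any 1 of the 10 libraries outside that pair was left out (adjusted p up to 0.149). It was also lost with no filter on low values (adjusted p = 0.0531) and, separately, after the GC correction (0.18, adjusted p = 0.154). At the MCE stage Herpud1 was at 50.9 and 49.4 TPM against 63.8 and 67.9 TPM (0.39 ± 0.13, adjusted p = 0.0681), a difference that passed the test after the GC correction (0.37, adjusted p = 0.0151) and without both shScram preadipocyte libraries (adjusted p = 0.00125). After differentiation the shFto libraries, at 79.1 and 80.8 TPM, were below the shScram libraries, at 81.9 and 89.5 TPM, and the difference of -0.10 ± 0.13 did not pass the test (adjusted p = 0.644). Herpud1 overlaps a gene on the opposite strand.

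Atf4 encodes the factor on which the stress kinases converge. It was at 189.7 and 501 TPM in shScram preadipocytes and at 523 and 497 TPM in shFto preadipocytes, so that shScram replicate 2 lay between the shFto libraries. In MCE-stage cells it was at 244 and 246 TPM against 336 and 338 TPM, and after differentiation at 169.9 and 169 TPM against 267 and 253 TPM. The pairs were close at these stages, and the groups did not overlap. With all 12 libraries the log2 fold changes of 0.72 ± 0.35, 0.46 ± 0.35 and 0.62 ± 0.35 did not pass the test (adjusted p = 0.136, 0.439 and 0.251). In preadipocytes the value was 0.026 without shScram replicate 1 (adjusted p = 0.826), 1.42 without replicate 2 (adjusted p = 1.12e-07) and 0.28 after the GC correction (adjusted p = 0.327). When both shScram preadipocyte libraries were left out of the fit, an alternative chosen after seeing the data, the later differences had a standard error of 0.06 and adjusted p of 0.000187 and 2.29e-05.

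Ddit3 encodes CHOP, a C/EBP-family factor of prolonged stress. It was at 239 and 289 TPM in shScram and at 449 and 427 TPM in shFto preadipocytes (log2 fold change 0.73 ± 0.12, adjusted p = 0.004). In MCE-stage cells it was at 96.2 and 100.1 TPM against 111 and 115 TPM, a difference of 0.20 ± 0.12 that did not pass the test (adjusted p = 0.312). After differentiation it was at 83.2 and 79.4 TPM against 121 and 128 TPM (0.61 ± 0.12, adjusted p = 0.00698). The groups did not overlap at any stage. The last call ended without replicate 2 of shScram or of shFto at that stage (adjusted p = 0.0574 to 0.0635). Ddit3 overlaps Mars (here Mars1), which encodes methionyl-tRNA synthetase and lies on the opposite strand, and Mars1 itself was higher in shFto cells after differentiation, so the levels of both are uncertain.

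Trib3 encodes a pseudokinase that restrains ATF4 and CHOP. It was at 28.1 and 125 TPM in shScram and at 217 and 197 TPM in shFto preadipocytes, with a log2 fold change of 1.78 ± 0.51 (adjusted p = 0.0337). The value was 0.72 without shScram replicate 1 (adjusted p = 0.000342) and 2.84 without replicate 2, and leaving out any 1 of the 10 libraries outside that pair ended the call (adjusted p up to 0.148), as did the fit with no filter on low values (adjusted p = 0.0914). After the GC correction the value was 1.16 (adjusted p = 0.0235). At the MCE stage it was at 32.5 and 34.0 TPM against 43.2 and 42.9 TPM (adjusted p = 0.705). After differentiation it was at 13.6 and 12.8 TPM against 31.8 in both shFto libraries, a log2 fold change of 1.21 ± 0.51 that did not pass the test (adjusted p = 0.135). It passed after the GC correction (1.02, adjusted p = 0.0363), in the fit on only the libraries of that stage (adjusted p = 0.000217), and without either or both of the shScram preadipocyte libraries (adjusted p up to 1.3e-06).

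Chac1 encodes a glutathione-degrading enzyme. It was at 23.4 and 94.3 TPM in shScram and at 100.3 and 89.6 TPM in shFto preadipocytes, and at 16.8 and 20.3 against 18.6 and 19.4 TPM at the MCE stage. The groups overlapped at both stages. After differentiation it was at 5.96 and 6.88 TPM in shScram and at 20.1 and 17.4 TPM in shFto cells. The last difference was 1.41 ± 0.49 (adjusted p = 0.0739). It passed the test after the GC correction (1.25, adjusted p = 0.0147) and without both shScram preadipocyte libraries (adjusted p = 9.82e-06). The difference in preadipocytes was 0.99 ± 0.49 (adjusted p = 0.146), or 0.01 without shScram replicate 1 (adjusted p = 0.981) and 1.97 without replicate 2 (adjusted p = 1.35e-06).

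Asns encodes asparagine synthetase, which makes asparagine from aspartate and glutamine. It went in opposite directions at the first and the last stage. It was at 454 and 449.8 TPM in shScram and at 347 and 356 TPM in shFto preadipocytes, where it fell (log2 fold change -0.36 ± 0.10, adjusted p = 0.0264). At the MCE stage it was at 212 and 214 TPM against 239 and 241 TPM (0.17 ± 0.10, adjusted p = 0.28). After differentiation it was at 139.6 and 141 TPM in shScram and at 212 and 221 TPM in shFto cells, where it rose (0.63 ± 0.10, adjusted p = 0.00208). The groups did not overlap at any stage. The fall in preadipocytes did not pass the test after the GC correction (-0.17, adjusted p = 0.199) or without any single shFto library (adjusted p up to 0.132), while the rise after differentiation passed it in all 21 settings.

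With both shScram preadipocyte libraries left out, 9 members were upregulated at the MCE stage (all but Chac1), where 25.2% of all genes tested rose, and 8 were upregulated at the differentiation stage (all but Dnajb9 and Herpud1), where 25.3% rose. The fold changes are the same in both fits, and the pooled spread is smaller in the second. Without replicate 1 alone, 7 members were upregulated and 1 was downregulated in shFto preadipocytes, where 16.1% of all genes rose and 12.9% fell. Without replicate 2 alone, the counts were 7 and 3, and 37.6% of all genes rose and 25.2% fell.

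**Figure D3:**
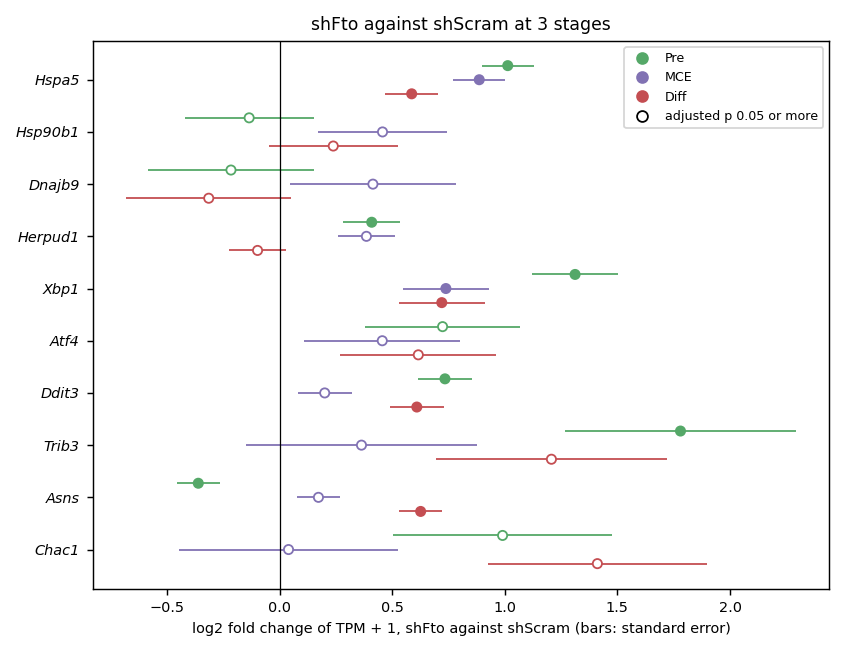
Log2 fold change of TPM + 1 in shFto against shScram cells (x axis, bars are standard errors of the limma fit on 12 libraries) for the 10 genes (y axis) at the Pre, MCE and Diff stages (colours). Filled points have an adjusted p under 0.05, with Hspa5 and Xbp1 filled at all 3 stages and Asns filled on opposite sides of 0 at Pre and Diff.

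The second comparison followed the genes through adipogenesis within each line. From preadipocytes to the MCE stage, 3 members were downregulated in shScram cells (Ddit3, Asns and Herpud1) and 1 was upregulated (Xbp1), against 26.9% and 12.2% of all genes tested. In shFto cells 5 were downregulated (Ddit3, Chac1, Asns, Herpud1 and Trib3), against 19.9%, and 8.80% of all genes rose. Without shScram preadipocyte replicate 1 the shScram counts were 7 lower and 2 higher, against 35.3% and 12.9% of all genes, and without replicate 2 they were 5 and 3, against 35.1% and 29.6%. With both left out, 7 members were lower and 2 higher in shFto cells, against 35.3% and 15.8%. Fitted on only the libraries of the step, no member was called in shScram cells, with 504 genes called, and 8 in shFto cells, with 7999 genes called. From the MCE to the differentiation stage, Herpud1 rose and Asns fell in shScram cells, where 20.0% of all genes rose and 5.22% fell. In shFto cells no member passed the test, at the adjusted or at the unadjusted threshold of 0.05 of limma, where 20.2% of all genes rose and 6.48% fell. The median of all genes moved by -0.17 and 0.23 in shScram and by -0.18 and 0.17 in shFto cells over these steps, and scaling by median ratios moved it by 0.17, -0.22, 0.19 and -0.17. This scaling moved the split of calls over all genes. In shScram cells it was 3200 higher and 2830 lower in the first step (1942 and 4294 without it) and 1862 and 1762 in the second (3190 and 833). In shFto cells it was 2263 and 2250 in the first step (1405 and 3180) and 2459 and 2027 in the second (3222 and 1034). Under it Xbp1 in the first step and Asns in the second were also called in shFto cells (0.52 and -0.36), as were Ddit3, Trib3 and Chac1, all lower, in the second step of shScram cells.

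Ddit3 fell from a mean of 264 to 98.1 TPM in shScram and from 438 to 113 TPM in shFto cells (log2 fold change -1.41 ± 0.12 and -1.95 ± 0.12, adjusted p = 4.63e-05 and 8.43e-06). Herpud1 fell from 124 to 50.1 TPM and from 165 to 65.8 TPM (-1.29 ± 0.13 and -1.31 ± 0.13, adjusted p = 0.000103 and 0.000106). Asns fell from 452 to 213 TPM and from 352 to 240.3 TPM (-1.08 ± 0.10 and -0.55 ± 0.10, adjusted p = 6.48e-05 and 0.00291), and the second of these had an adjusted p of 0.0589 after scaling by median ratios. Trib3 and Chac1 fell in shFto cells from 207 to 43.1 TPM and from 94.9 to 19.0 TPM (-2.24 ± 0.51 and -2.26 ± 0.49, adjusted p = 0.0109 and 0.00814). These 2 calls had an adjusted p of 0.05 to 0.0618 when libraries of the step were left out (shFto Pre and MCE replicates 1 and 2 for Trib3, both replicates 1 for Chac1). In shScram cells the same step was -0.82 ± 0.51 for Trib3 and -1.31 ± 0.49 for Chac1 and did not pass the test (adjusted p = 0.231 and 0.0607). It was -1.88 and -2.29 without shScram preadipocyte replicate 1, and 0.24 and -0.33 without replicate 2.

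Xbp1 went the other way and rose from 46.1 to 82.0 TPM in shScram cells (0.86 ± 0.19, adjusted p = 0.00825), or by 0.51 without shScram preadipocyte replicate 1 and by 1.20 without replicate 2. In shFto cells it was at 113 TPM and then at 137 TPM (0.28 ± 0.19, adjusted p = 0.319). Hspa5 was at 512 and 469.7 TPM in shScram and at 1032 and 869 TPM in shFto cells, and neither step passed the test. In the step to the differentiation stage, Herpud1 rose in shScram cells from 50.1 to 85.7 TPM (0.76 ± 0.13, adjusted p = 0.00322). Asns fell there from 213 to 140.1 TPM (-0.60 ± 0.10, adjusted p = 0.00276). In shFto cells these genes were at 65.8 and 79.9 TPM (0.28 ± 0.13, adjusted p = 0.141) and at 240.3 and 217 TPM (-0.15 ± 0.10, adjusted p = 0.304). Without both shScram preadipocyte libraries, 5 members rose and 5 fell in shScram cells in this step, where 38.3% of all genes rose and 13.7% fell. In shFto cells 3 rose and 2 fell, against 34.6% and 16.4% of all genes.

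**Figure D4:**
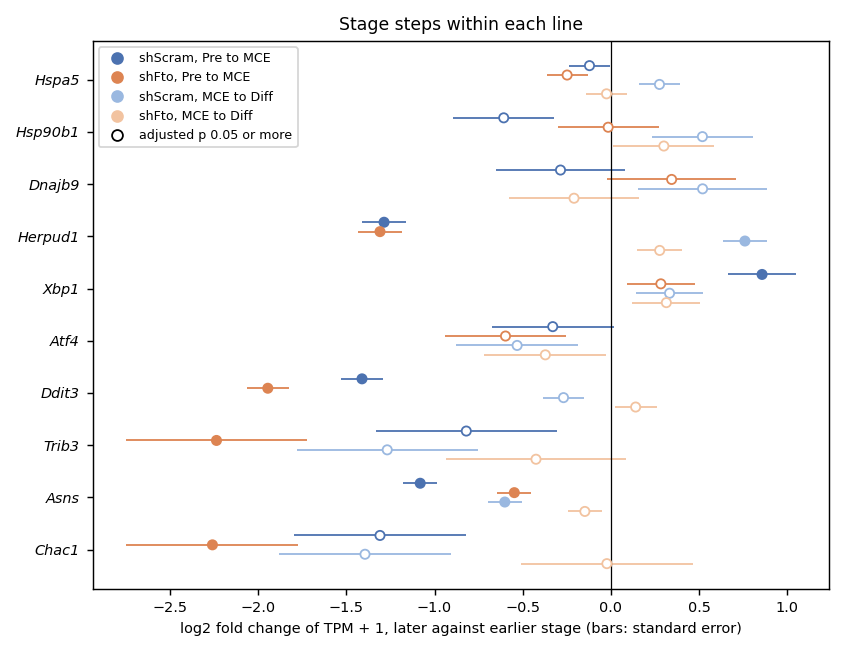
Log2 fold change of TPM + 1 from the earlier to the later stage (x axis, bars are standard errors) for the 10 genes (y axis), with dark colours for the Pre to MCE step and light colours for the MCE to Diff step. Filled points have an adjusted p under 0.05, and Ddit3, Herpud1 and Asns lie left of 0 in both lines in the first step.

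The third comparison tested whether a stage step differed between the lines, as an interaction contrast of the same model. For the step from preadipocytes to the MCE stage no member passed limma's adjusted test, which called 5.11% of all genes. An unadjusted p under 0.05 was found for 2 members. For the step from the MCE to the differentiation stage no member passed the adjusted test, which called 2.49% of all genes. An unadjusted p under 0.05 was found for 3 members. The share of all genes at the unadjusted threshold is not given, so the counts of 2 and 3 have no share beside them. For the whole course from preadipocytes to the differentiation stage, a contrast added after the data were seen, 7.67% of all genes were called and Asns was the only member among them. Asns fell from 452 to 140.1 TPM in shScram cells and from 352 to 217 TPM in shFto cells, and the difference between the lines was 0.99 ± 0.14 on the log2 scale (adjusted p = 0.00352). It was called in all 20 settings, at 0.85 to 1.06. Leaving out a shScram preadipocyte library changed these counts. Without replicate 1, 3 members were called for the step to MCE and 6 for the whole course, with 14.1% and 17.8% of all genes. Without replicate 2 these were 8 and 9 members, with 52.5% and 51.0% of all genes. Without both shScram preadipocyte libraries, 4 members had a higher step from MCE to differentiation in shFto cells (Ddit3, Chac1, Asns and Trib3) and 2 a lower one (Dnajb9 and Herpud1), against 8.19% and 8.99% of all genes.

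The members were also compared by their course over the 12 libraries. The correlation of log2(TPM + 1) is a description here, since the libraries share their groups and their lines. Among Atf4, Ddit3, Trib3, Asns and Chac1 the Pearson r of the 10 gene pairs was 0.652 to 0.973 with a median of 0.875. Without shScram preadipocyte replicate 1 it was 0.876 to 0.983 with a median of 0.962 over 11 libraries. Among Hspa5, Hsp90b1, Dnajb9, Herpud1 and Xbp1 it was -0.196 to 0.722 with a median of 0.136. Without that library it was -0.289 to 0.848 with a median of 0.526. Between these 2 sets of genes the median over 25 pairs was 0.122 (-0.632 to 0.869), close to that among the second set, and without that library it was -0.148. Herpud1 followed Ddit3 (r = 0.869) more closely than it followed Hspa5 (r = 0.409). Hspa5 and Hsp90b1, which both hold ERSE, had an r of 0.264, or 0.676 without that library. Outside the members, the genes most like Hspa5 over the 12 libraries among 10799 genes with a mean TPM of 5 or more were H2-Q4 (r = 0.986), Cdr2 (r = 0.986) and Cnot8 (r = 0.979). Those most like Asns were Fdft1 (r = 0.99), Fdps (r = 0.99) and Msmo1 (r = 0.983).

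Other genes of the pathway were examined as lists. Their counts stand beside the shares of all genes given above, which were 15.9%, 10.5% and 11.9% for genes that rose at the 3 stages. In the fit without both shScram preadipocyte libraries 25.2% rose and 15.8% fell during MCE, and 25.3% rose and 20.4% fell after differentiation. The sensor list held 9 genes, which were sensors and sensor-like factors of the ER and the site proteases (Mbtps1 and Mbtps2). Of these, 5 were upregulated in shFto preadipocytes and 3 at the MCE stage. None passed the adjusted or the unadjusted threshold of limma after differentiation. Without both shScram preadipocyte libraries the counts at the later stages were 5 and 2, the second of which is no larger a share than that of all genes. PERK (Eif2ak3) rose by 0.56 ± 0.14 in preadipocytes (adjusted p = 0.0223) and by 0.49 ± 0.14 at the MCE stage (adjusted p = 0.0444). Creb3l1, a membrane-bound factor of the ER, was during MCE at 23.6 and 23.1 TPM in shScram cells, against 74.1 and 70.9 TPM in shFto cells (1.59 ± 0.38, adjusted p = 0.0204), a call that ended without any 1 of these 4 libraries (adjusted p up to 0.112). Atf6b, at 17.2 and 89.9 TPM in the shScram preadipocyte pair and at 138 TPM in both shFto libraries, rests on that pair. Ern1 and Atf6 were not called at any stage.

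A list of 6 genes held eIF2 kinases, phosphatase subunits and Eif2s1, which encodes a subunit of eIF2 itself. Of these, Ppp1r15a rose in shFto preadipocytes and Eif2ak2 and Eif2ak4 fell. Ppp1r15a encodes GADD34, which restores eIF2, and was at 21.8 and 35.4 TPM in shScram and at 82.1 and 79.5 TPM in shFto cells (1.51 ± 0.21, adjusted p = 0.00198). Eif2ak2, which encodes the double-stranded RNA sensor PKR, was at 242.5 and 174 TPM against 86.8 and 109 TPM (-1.07 ± 0.19, adjusted p = 0.00595). GCN2 (Eif2ak4), which senses uncharged tRNA, fell by 0.45 on the log2 scale in preadipocytes (adjusted p = 0.0346) and rose by 0.44 ± 0.13 after differentiation (adjusted p = 0.0438). The last call ended for 8 of the 12 libraries left out in turn (adjusted p up to 0.18).

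Of 17 other ER chaperones and folding enzymes, 6 rose and 1 fell in shFto preadipocytes, 7 rose at the MCE stage and 3 rose after differentiation. Without both shScram preadipocyte libraries 10 rose at the MCE stage, and 8 rose and 2 fell after differentiation. Pdia6, a disulfide isomerase, was among those that rose at each stage. At the MCE stage Pdia3, another isomerase, was at 392 and 370.4 TPM in shScram and at 720.3 and 729 TPM in shFto cells (0.93 ± 0.18, adjusted p = 0.00742), a call that ended without shScram replicate 2 or either shFto replicate of that stage (adjusted p up to 0.0593). Ero1l, the oxidase that recharges the isomerases, was at 117 and 132 TPM against 251 and 284 TPM after differentiation (1.10 ± 0.16, adjusted p = 0.00177). Summed over the list, shFto cells had 6118 and 6131 TPM at the MCE stage and shScram cells 4282 and 4292 TPM. Canx, the lectin chaperone calnexin, fell in preadipocytes (-0.43 ± 0.13, adjusted p = 0.0382), but after the GC correction the value was 0.0015 (adjusted p = 0.993). Without shScram replicate 1 the counts in preadipocytes were 10 higher and 1 lower, where 16.1% of all genes rose and 12.9% fell. Without replicate 2 they were 7 and 5, where 37.6% rose and 25.2% fell. Of 12 genes of ER-associated degradation, 4 rose in preadipocytes and 2 at the MCE stage. After differentiation none passed limma's adjusted test and 1 had an unadjusted p under 0.05. Without both shScram preadipocyte libraries 3 rose and 1 fell at the MCE stage and 3 rose after differentiation. In preadipocytes 5 rose without shScram replicate 1, and 6 rose and 1 fell without replicate 2. Of 8 cytosolic heat shock genes, 3 rose in preadipocytes, and at the later stages 1 and 2 rose and 1 and 1 fell (3 and 4 rose without both shScram preadipocyte libraries).

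Of 9 ATF4-linked factors, 6 rose in shFto preadipocytes (Atf5, Fgf21, Nupr1, Atf3, Gdf15 and Vldlr). At the MCE stage 1 rose and 1 fell, and after differentiation 3 rose (Nupr1, Atf3 and Vldlr). Fgf21, Atf3 and Gdf15 were near the floor. In preadipocytes Fgf21 was at 0 and 1.65 TPM (shScram) against 7.20 and 6.45 TPM (shFto). Atf3 was at 0.947 and 1.99 against 5.35 and 4.19 TPM, and Gdf15 at 0 and 0.345 against 2.13 and 1.16 TPM. After differentiation Atf3 was at 0 TPM in both shScram libraries and at 1.17 and 1.13 TPM in shFto cells. Without both shScram preadipocyte libraries 3 rose and 2 fell at the MCE stage and 6 rose after differentiation. Nupr1, a stress-induced chromatin protein, rose at each of these stages and was at 86.2 and 88.2 TPM in shScram and at 206 and 231 TPM in shFto cells after differentiation (1.31 ± 0.11, adjusted p = 8.79e-05). Atf5 was at 56.0 and 443 TPM in shScram and at 831 and 796 TPM in shFto preadipocytes (2.36 ± 0.72, adjusted p = 0.0402), and the value was 0.88 without shScram replicate 1 and 3.84 without replicate 2.

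Genes of amino acid use and supply formed the remaining lists. Of 12 aminoacyl-tRNA synthetases, 11 fell from preadipocytes to the MCE stage in shScram cells and 11 in shFto cells. Of all genes tested, 26.9% and 19.9% fell in this step. The list summed to 2557 and 2948 TPM in shScram preadipocytes and to 1220.3 and 1209 TPM at the MCE stage. After differentiation 7 of the 12 were upregulated in shFto cells (Mars1, Cars, Gars, Aars, Tars, Iars and Nars), with a list median of 0.44. At the MCE stage 1 was called (Gars). At the unadjusted threshold of 0.05 the count was 8, for which no share of all genes is given. Without both shScram preadipocyte libraries 6 rose and 3 fell at the MCE stage. In preadipocytes none passed the adjusted threshold of limma and 4 had an unadjusted p under 0.05. Over the whole course from preadipocytes to differentiation, the change of 5 of the 12 (Cars, Gars, Tars, Iars and Nars) was called higher in shFto than in shScram cells, as was that of Asns, which is a difference between changes and not in level. Without shScram preadipocyte replicate 1 this count was 11, and without replicate 2 it was 7, with 1 called the other way. Of all genes tested, 7.67% were called in either direction with all libraries, 17.8% without replicate 1 and 51.0% without replicate 2. Of 8 enzymes of amino acid synthesis, 1 rose (Pycr1) and 1 fell (Psat1) in shFto preadipocytes, with a list median of 0.36. Without shScram replicate 1 the counts were 1 and 2, where 16.1% of all genes rose and 12.9% fell. Without replicate 2 they were 7 and 1, where 37.6% rose and 25.2% fell. Psat1 of the serine pathway was at 494.5 and 489 TPM in shScram and at 155 and 159.8 TPM in shFto preadipocytes (-1.64 ± 0.10, adjusted p = 3.09e-05). It also fell at the MCE stage. After differentiation 3 of the 8 rose (Pycr1, Aldh18a1 and Cth) and Mthfd2 fell from 149 and 145 TPM to 59.6 and 63.0 TPM (-1.25 ± 0.14, adjusted p = 0.000437). Of 9 amino acid transporters, 3 rose (Slc6a9, Slc7a11 and Slc1a4) and 1 fell (Slc7a3) in shFto cells at that stage. When both shScram preadipocyte libraries were left out, 5 of the enzymes rose and 2 fell there, and 4 of the transporters rose and 2 fell. In shFto preadipocytes 1 transporter rose (Slc7a1) and 2 fell (Slc7a11 and Slc38a2), with 7 of the 9 above 0 and a list median of 0.37. Slc7a11, which imports cystine, fell in shFto preadipocytes (-0.63 ± 0.16, adjusted p = 0.022) and rose at the MCE stage (0.67 ± 0.16, adjusted p = 0.0206). After the GC correction the first value was -0.13 (adjusted p = 0.688), and the second call ended without any 1 of the 4 libraries of that stage (adjusted p up to 0.133).

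**Figure D5:**
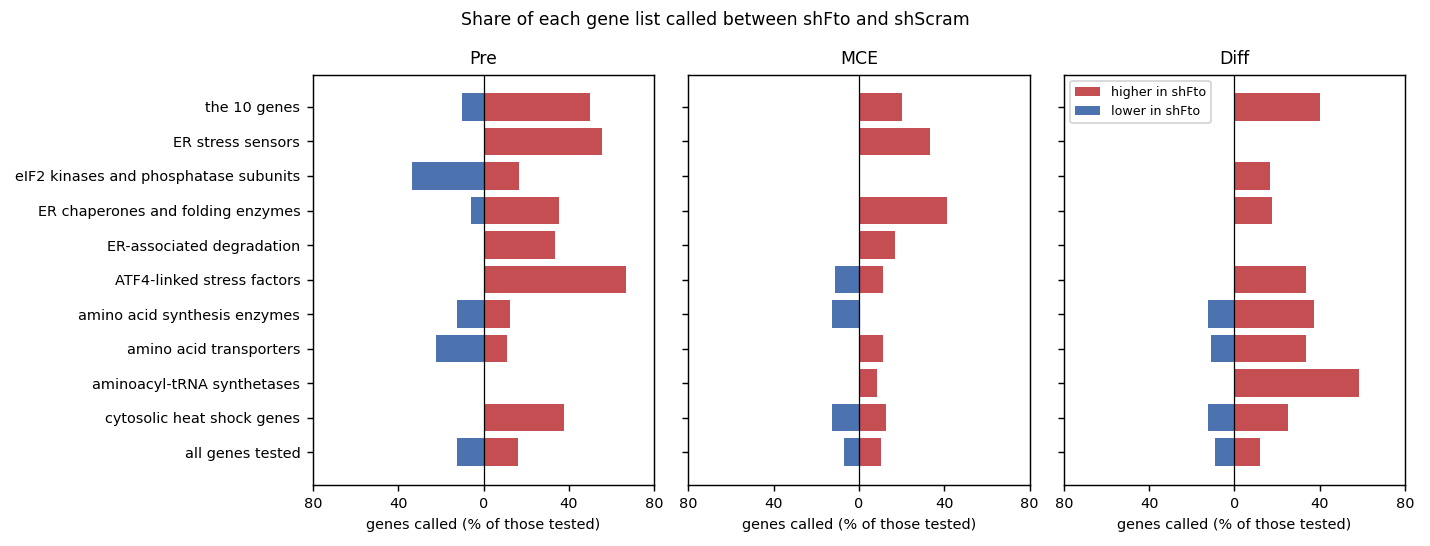
Share of the tested genes of each list (x axis, percent) that were called higher (red, right of 0) or lower (blue, left of 0) in shFto against shScram cells at the Pre, MCE and Diff stages, with all 15968 genes tested in the last row. Of its stages, the aminoacyl-tRNA synthetase list has most genes called higher at Diff (7 of 12) and the ER sensor list at Pre (5 of 9).

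The elements found upstream of the members were also counted over all genes tested, in the fit on all 12 libraries only. The C/EBP-ATF element was held by 295 tested genes, among them the members Herpud1, Trib3, Asns and Chac1. Of these genes, 23.7% rose in shFto preadipocytes, 12.9% at the MCE stage and 20.3% after differentiation. Of all genes, 15.9%, 10.5% and 11.9% rose. The shares that fell were 14.6%, 8.47% and 12.2%, against 12.3%, 7.26% and 9.31% of all genes. The median log2 fold changes were 0.11, 0.108 and 0.144, against 0.08, 0.05 and 0.03 for all genes. Of 108 tested genes with UPRE, 22.2%, 22.2% and 16.7% rose and 11.1%, 4.63% and 8.33% fell, with medians of 0.27, 0.20 and 0.15. Only 20 tested genes held ERSE and 9 held ERSE-II, members included, of which 6 and 3 rose and 3 and 1 fell in preadipocytes. At the MCE stage 5 and 1 rose and 2 and 0 fell, and after differentiation 5 and 1 rose and 0 and 1 fell.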

How the data were processed

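The deposited values are TPM per gene, which the authors estimated with StringTie 2.1.4. Before that, reads were trimmed (Trim Galore 0.6.5) and mapped to GRCm38 (HISAT2 2.1.0). They called their own differential genes with DESeq2 1.30.1 on counts, which were not used here. Depth cannot be recovered from TPM and is unknown here, and precision is set by having 2 libraries in each group. Between 20853 and 24018 genes were above 0 per library.

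Here, log2(TPM + 1) was fitted with limma 3.58.1 in R 4.3.3 (a mean per group, eBayes with trend, 12 libraries, 6 residual degrees of freedom), two-sided, with Benjamini-Hochberg adjustment over 15968 genes. An adjusted p under 0.05 was a call. Shares of all genes are given for calls only, so counts at an unadjusted p under 0.05 cannot be set against them. The fit was also run on simulated data in which each gene had the same spread in all 6 groups. That setting holds no pair that stands apart, so it cannot show how the fit handles the shScram preadipocyte pair. Other steps used Python 3.11.15, numpy 2.4.6 and pandas 2.3.3. GC values were found for 15928 genes. Alternatives changed the pseudocount (0.1), the filter (none, or a mean TPM of 5), the scaling, the libraries in the fit, a replicate block, a GC correction and each library left out. The members and gene lists were chosen with earlier results of these data known. Named list genes were the called gene with the highest and the lowest log2 fold change per list and comparison among those with a mean TPM of 5 or more, with all sensors and eIF2 kinases, and other genes named in the lists were chosen after their values were seen. A set of proteins with an ER retention signal was not analysed here.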

Additional observations from a re-analysis of the deposited data

Results flagged for a closer look

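One result was singled out because an effect differed between the lines by a test of the difference itself. Asns fell from preadipocytes to the differentiation stage by 0.99 less on the log2 scale in shFto than in shScram cells (0.9873 ± 0.14, SE, adjusted p = 0.00352 by limma), and it was the only member called in this contrast, which was added after the data were seen. Both shFto preadipocyte libraries were below both shScram libraries, and both shFto libraries of the differentiation stage were above both shScram libraries.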

How the results depend on the processing

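Of the 100 member results, 100 kept direction and call with a pseudocount of 0.1, with the filter at a mean TPM of 5 or more and with the replicate block, 95 with no filter, 89 with median-ratio scaling and 77 with the GC correction. The cause of a change was not tested. Same-numbered libraries deviated together in 2 of 15 pairs of groups (r from -0.29 to 0.172), so the numbers were not taken as pairs. The replicate block changed no member call, ended calls of other named genes, among them the knockdown calls of Canx in preadipocytes and of Eif2ak4 at Diff (adjusted p = 0.0577 and 0.0712), and gave 257 called genes instead of 397 for the line difference from MCE to Diff.
Fits on only the libraries of the contrast called 0 members and 0 genes for the knockdown in preadipocytes, 9 and 5913 at MCE, 7 and 6613 at Diff, 0 and 504 for shScram from Pre to MCE, 10 and 6454 from MCE to Diff, 8 and 7999 and then 6 and 8684 for the same steps in shFto, 239 genes for the line difference from Pre to MCE, 6 members and 2694 genes from MCE to Diff, and 414 genes from Pre to Diff.
Without both shScram preadipocyte libraries (chosen after seeing the data) the counts were 9 and 6547 for the knockdown at MCE, 8 and 7295 at Diff, 10 and 8308 for shScram from MCE to Diff, 9 and 8164 and then 5 and 8137 for the steps in shFto, and 6 and 2743 for the line difference from MCE to Diff.
The GC correction gave 4 members for the knockdown at MCE, 7 and 6 for the steps in shScram and 1 for shFto from MCE to Diff, with 1287, 847 and 1847 genes for the line differences from Pre to MCE, MCE to Diff and Pre to Diff. With the replicate block added these were 4, 7, 5 and 1 members, and 659 genes from MCE to Diff. With no filter 1 member was called for the knockdown at MCE and 1 for the line difference from Pre to MCE, and 606 genes from MCE to Diff. A mean TPM of 5 or more gave 2260 genes for the knockdown at Diff, 2677 for shFto from MCE to Diff and 226 for the line difference from MCE to Diff, which was 202 with a pseudocount of 0.1. Median-ratio scaling gave 5 members for shScram and 1 for shFto from MCE to Diff. Counts of all genes are not given for the knockdown and stage steps of the GC-corrected fits. They are also not given for the contrasts in which the fit with no filter called 1 member. A change in the members cannot be told there from a general shift in calls.
Leaving out 1 library at a time, the members called ranged from 3 to 10, 1 to 9 and 1 to 8 for the knockdown at Pre, MCE and Diff (all genes 1169 to 10025, 1215 to 6548 and 1639 to 7290). They ranged from 4 to 9 and 2 to 10 for the shScram steps (3292 to 10338 and 1605 to 8309), and from 3 to 9 and 0 to 5 for the shFto steps (2548 to 8164 and 2013 to 8136). For the line differences they ranged from 0 to 8, 0 to 6 and 1 to 9 (255 to 8378, 125 to 2730 and 495 to 8138).
Values changed sign for 9 member results with the GC correction (also with the replicate block), 5 with median-ratio scaling and in 24 cases with 1 library left out, none of them called with all libraries. With the GC correction the knockdown difference in preadipocytes was 0.30 for Hsp90b1 and 0.29 for Dnajb9, and that at MCE was -0.040 for Chac1. The shScram step to MCE was 0.10 for Hspa5 (also with median-ratio scaling) and 0.15 for Dnajb9, and the shFto step to Diff was 0.0028 for Hspa5. The line difference from Pre to MCE was 0.19 for Herpud1 and 0.12 for Atf4, and that from Pre to Diff was 0.23 for Atf4. Outside the members, Canx in preadipocytes, called with all libraries, was 0.0015. Median-ratio scaling gave 0.22 for Hsp90b1 in the shFto step to MCE, -0.073 for Ddit3 in the shFto step to Diff, -0.024 for Chac1 in the knockdown at MCE and 0.039 for Xbp1 in the line difference from MCE to Diff.
Of the sign changes with 1 library left out, 10 were called without that library. Without shScram preadipocyte replicate 1 the knockdown difference in preadipocytes was 0.41 for Hsp90b1 and 0.49 for Dnajb9 (without replicate 2, -0.68 and -0.92), the shScram step to MCE was 0.42 for Dnajb9 (-0.99), the line difference from Pre to MCE was 0.43 for Atf4 (-0.97), and that from Pre to Diff was 0.59 for Atf4 (-0.81) and 0.48 for Trib3 (-1.63). Without replicate 2 the shScram step to MCE was 0.37 for Atf4 and 0.24 for Trib3 (without replicate 1, -1.03 and -1.88), and the line difference from Pre to Diff was 0.61 for Dnajb9 and -0.56 for Chac1 (-0.81 and 1.40).
The other 14 were not called. With 1 library left out, the line difference from Pre to Diff ranged from -0.17 to 0.92 for Hsp90b1 and from -0.26 to 0.012 for Ddit3. That from Pre to MCE ranged from -0.076 to 1.34 for Dnajb9, from -0.18 to 0.14 for Herpud1 and from -1.93 to 0.032 for Chac1, and that from MCE to Diff from -0.061 to 0.024 for Xbp1. The shFto step to MCE ranged from -0.071 to 0.040 for Hsp90b1, the shFto step to Diff from -0.079 to 0.030 for Hspa5 and from -0.12 to 0.079 for Chac1, and the knockdown difference at MCE from -0.090 to 0.17 for Chac1. TPM values give no depth, so what depth limits cannot be said.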
